A study of Homo sapiens with 9 samples.

Results

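The BCL2 family controls whether a cell opens its mitochondria and dies by apoptosis. MCL1 and 9 relatives, 10 genes in all of the 34830 human genes listed in the deposited count table, were followed here in cells of TC71, an Ewing sarcoma line of human origin, taken from metastases and a primary tumour in mice. The genes were matched by symbol, and all 10 were found and had enough counts to be tested. The set was chosen with measured values in view: MCL1 was selected on its bone marrow and lung levels in these same libraries, and the others are the family members around it. The bone marrow and lung values of the 10 genes are therefore given as a description, with no test.

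All cells were of the TC71 line, which carries no engineered change in the labels, and grew from 100 cells placed in Matrigel under the skin of the flank of NSG mice, which lack mature lymphocytes but keep macrophages and neutrophils. There were 4 libraries of cells sorted from bone marrow, 4 from lung and 1 from the primary tumour, each recovered by flow cytometry when the tumour was 1.5 cm across. No group had a drug treatment in the labels. The age of the mice, which libraries came from the same mouse and whether animals were pooled are not given in the sources used here, so p-values measure only the spread between these samples, which may be partly technical. The primary tumour, with 1 library, has no spread of its own.

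MCL1, BCL2, BCL2L1 (BCL-xL) and BCL2L2 (BCL-w) are anti-apoptotic members, which hold the killer proteins in check. BAX and BAK1 are the effectors, which form pores in the outer mitochondrial membrane and release cytochrome c. BID, BAD, BCL2L11 (BIM) and PMAIP1 (NOXA) are BH3-only members, each of which uses a short helix, the BH3 region, to occupy the groove of an anti-apoptotic member or to activate an effector. NOXA binds mainly MCL1 and hastens its degradation, BAD binds BCL2, BCL-xL and BCL-w rather than MCL1, and BIM and cleaved BID bind all of them. MCL1 is known for short-lived RNA and protein, so that its level follows the rate of its synthesis closely.

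The coding sequence of the BH3 core is shown for MCL1 and for the 3 BH3-only members with the highest levels. The comparison of MCL1 with these members runs through the results. Each is the 36 bases that start at a leucine codon, which 3 further codons separate from a glycine or serine codon and then an aspartate codon. They are read 5′ to 3′ on the coding strand from the transcripts of GENCODE release 29 (GRCh38). Capitals mark the codons for leucine, for glycine or serine and for aspartate.
MCL1: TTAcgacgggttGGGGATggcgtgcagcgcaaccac
PMAIP1: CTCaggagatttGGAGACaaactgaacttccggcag
BID: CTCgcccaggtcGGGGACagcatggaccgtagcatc
BAD: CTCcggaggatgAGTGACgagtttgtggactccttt
The MCL1 sequence lies at chr1:150578859-150578894 on the minus strand, within 1 exon. The PMAIP1 sequence lies at chr18:59902673-59902708 on the plus strand, the BID sequence at chr22:17739409-17739444 on the minus strand and the BAD sequence at chr11:64271616-64271651 on the minus strand. BAD has the serine codon AGT where the pattern allows glycine or serine, and the other 3 have a glycine codon. BID held 2 matches to the pattern, and the one with glycine is shown. BCL2L2 held no match to these letters.

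Levels are CPM, estimated counts scaled to a common library total and adjusted between libraries by the trimmed mean of M values (TMM), and gene coordinates are those of GENCODE release 29 (GRCh38). Estimated counts summed to 11550045 to 13219016 per lung library, 14159456 to 17911515 per bone marrow library and 12354111 in the primary library, so a level of 1 CPM rests on few reads. Each of the 12 Ewing sarcoma markers listed had counts in at least 1 library. STEAP1 was at 574 to 1052 CPM and CD99 at 299 to 779 CPM over the metastasis libraries. Other markers were low or uneven. GLI1 had a bone marrow median of 0 and was at 0 in the primary tumour, and LIPI ran from 0.0704 to 217 CPM in lung. The summed level of the 12 was 2579 to 3840 CPM in bone marrow, 2782 to 3905 CPM in lung and 3889 in the primary tumour. The summed level of 11 leukocyte markers was 1.63 to 8.73 CPM in bone marrow, 2.76 to 38.0 CPM in lung and 4.14 in the primary tumour, with CSF1R at 0 in every library. The share of reads assigned to human was 77.6% to 79.1% in bone marrow, 72.7% to 77.3% in lung and 78.1% in the primary library.

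MCL1 (chromosome 1, 150574551 to 150579738, minus strand) had higher levels in lung than in bone marrow metastases. Its level in the 4 bone marrow libraries was 73.0, 96.0, 84.8 and 55.9 CPM, and in the 4 lung libraries 414, 538, 259 and 316 CPM. The primary library held 239 CPM. Every lung library lay above every bone marrow library, and the primary library lay between them, just below the lowest lung library. The means were 77.4 ± 17.2 CPM for bone marrow and 382 ± 122 CPM for lung (SD, n = 4 each), a log2 fold change of -2.30 (SE 0.29) for bone marrow against lung. With single libraries left out it stayed between -2.44, without lung replicate 3, and -2.09, without lung replicate 2. Libraries of bulk cells cannot tell fewer cells that carry a transcript from less of it per cell. MCL1 was the 1 member of 10 whose groups did not overlap. Among all 17042 genes tested, 3.06% had every lung library above every bone marrow library and 2.82% the reverse. Other measures separated the sites in the same way: library totals and the human share of reads, given above, did not overlap, 18.9% to 20.3% of reads were unaligned in bone marrow against 20.4% to 24.7% in lung, and 0.0956% to 0.218% against 0.359% to 0.491% fell on mitochondrial rRNA. The part of these in the MCL1 difference was not tested.

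BCL2 (chromosome 18, 63123346 to 63320128, minus strand), the founding anti-apoptotic member, was low throughout. It was at 2.59, 0.549, 0.556 and 0.978 CPM in bone marrow, 9.59, 2.53, 5.30 and 1.23 in lung and 5.45 in the primary tumour. The lung mean of 4.66 ± 3.69 CPM was above the bone marrow mean of 1.17 ± 0.969 CPM (SD, n = 4 each), but the groups overlapped, since bone marrow replicate 1 exceeded 2 lung libraries. Its log2 fold change of -1.99 (SE 0.86) was -2.71 without bone marrow replicate 1 and -1.34 without lung replicate 1.

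BCL2L1 (chromosome 20, 31664452 to 31723989, minus strand) encodes BCL-xL, another guardian of the outer membrane. Its values were 0.148, 0.305, 4.31 and 3.00 CPM in bone marrow, 0.170, 17.3, 1.66 and 0.145 in lung and 0.153 in the primary tumour. A single library, lung replicate 2 with 246 estimated counts, stood far above the rest, while 4 of the 9 libraries held 2 counts each. The log2 fold change of -1.31 (SE 1.58) turned to 1.55 without lung replicate 2, so no direction between the sites can be read for this gene. Loss of molecules in low-input library preparation can leave values this uneven, and its part here was not tested.

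BCL2L2 (chromosome 14, 23298790 to 23311759, plus strand) was the anti-apoptotic member with a higher mean in bone marrow. Bone marrow libraries held 6.37, 11, 0.834 and 4.04 CPM, lung libraries 7.72, 4.15, 0.497 and 0.654 CPM and the primary library 5.52 CPM. The groups overlapped almost fully. BCL2L2 had a log2 fold change of 0.77 (SE 1.04), which was 0.20 without bone marrow replicate 2 and 1.66 without lung replicate 1. The readthrough transcript that joins BCL2L2 to its neighbour PABPN1 is listed as a gene of its own and was seen in bone marrow replicate 2 alone, at 0.183 CPM.

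**Figure D1:**
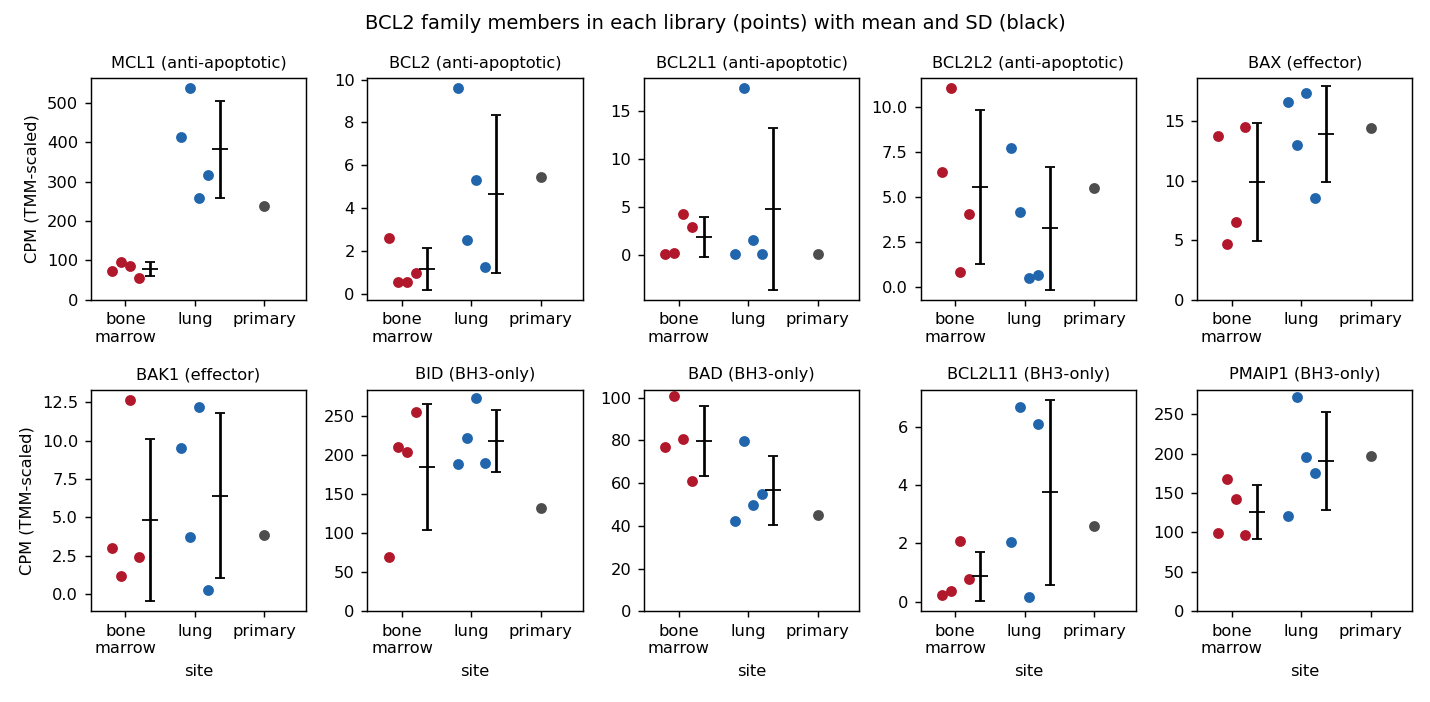
Level of each of the 10 BCL2 family members in every library (y axis, TMM-scaled CPM, with its own scale in each panel) by site (x axis: 4 bone marrow, 4 lung and 1 primary library). Points are libraries and black bars the mean and SD of 4 libraries, which reach below 0 where the SD exceeds the mean. MCL1 is the panel in which the lung points (259 to 538 CPM) all lie above the bone marrow points (55.9 to 96.0 CPM).

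The effectors varied as much within a site as between sites. BAX (chromosome 19, 48954815 to 48961798, plus strand) was at 13.8, 4.70, 6.53 and 14.5 CPM in bone marrow, 16.6, 13, 17.4 and 8.57 in lung and 14.4 in the primary tumour. Its groups overlapped, with a log2 fold change of -0.49 (SE 0.53) that was -0.74 without bone marrow replicate 4 and -0.26 without bone marrow replicate 2. BAK1 (chromosome 6, 33572547 to 33580293, minus strand), the effector that MCL1 and BCL-xL hold in check, was at 3.03, 1.16, 12.6 and 2.41 CPM in bone marrow, 9.50, 3.73, 12.2 and 0.291 in lung and 3.84 in the primary tumour. Its highest and its lowest library, bone marrow replicate 3 and lung replicate 4, each lay outside the range of the other site. The log2 fold change of -0.42 (SE 1.08) became 0.10 without lung replicate 3 and -1.54 without bone marrow replicate 3.

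Among the BH3-only members, PMAIP1, BID and BAD were abundant and BCL2L11 was scarce. PMAIP1 (chromosome 18, 59899948 to 59904306, plus strand), whose protein binds mainly MCL1, was at 99.0, 167, 142 and 97.4 CPM in bone marrow, 121, 272, 196 and 176 in lung and 196 in the primary tumour. Lung had the higher mean, 191 ± 62.3 CPM against 126 ± 34.2 CPM (SD, n = 4 each), but lung replicate 1 fell inside the bone marrow range. The log2 fold change was -0.60 (SE 0.30), in the direction of MCL1 and smaller in size, and -0.38 without lung replicate 2.

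BID (chromosome 22, 17734138 to 17774770, minus strand), which links death receptors to mitochondria once caspase-8 cuts it, was at 69.1, 209.9, 204 and 255 CPM in bone marrow, 188, 222, 272 and 189.6 in lung and 132 in the primary tumour. Bone marrow replicate 1 was the lowest library, and the other 3 bone marrow libraries lay within the lung range. BID had a log2 fold change of -0.24 (SE 0.37), and 0.05 without that replicate.

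BAD (chromosome 11, 64269830 to 64284704, minus strand) was at 76.7, 100.6, 80.7 and 60.8 CPM in bone marrow, 42.1, 79.6, 49.9 and 54.8 in lung and 45.1 in the primary tumour. BAD, a sensor of growth factor signalling, was one of 2 members with a higher mean in bone marrow, with a log2 fold change of 0.49 (SE 0.30). The overlap came from lung replicate 2, and without it the log2 fold change was 0.70. BCL2L11 (chromosome 2, 111119378 to 111168447, plus strand), whose protein BIM is the broadest BH3-only activator, was at 0.222, 0.366, 2.08 and 0.782 CPM in bone marrow, 2.04, 6.69, 0.166 and 6.10 in lung and 2.61 in the primary tumour. Both the highest and the lowest value were lung libraries, and the log2 fold change was -2.11 (SE 1.12).

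Read as a set, 8 of the 10 members had a lower fitted level in bone marrow than in lung and 2 a higher one, with a median log2 fold change of -0.54. Over all 17042 tested genes 8511 were higher and 8504 lower in bone marrow, with a median of 0. The 8 include MCL1, which was chosen on this contrast. Of the other 9 members 7 were lower, and 5 with limma voom. BCL2L1, BAK1 and BID changed sign under some alternatives, so the count and the median do not show a shift of the family. The median was -1.65 for the 4 anti-apoptotic members, -0.45 for the 2 effectors and -0.42 for the 4 BH3-only members. The first of these lies between BCL2 and BCL2L1, and BCL2L1 turned from -1.31 to 1.55 without lung replicate 2. MCL1, chosen on this contrast, is also among those 4, so the medians do not rank the classes. The plot of log2 fold changes shows how wide the standard errors of the low members are beside that of MCL1.

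**Figure D2:**
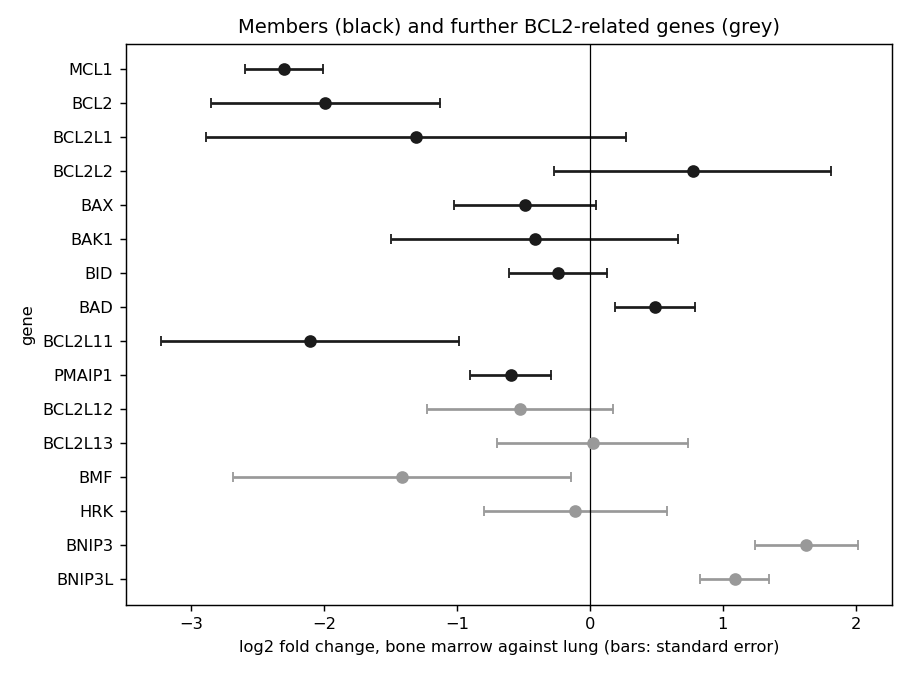
Log2 fold change of bone marrow against lung (x axis) for the 10 members (black) and 6 further BCL2-related genes (grey), one per line on the y axis. Points are estimates of the edgeR model and bars 1 standard error. MCL1 sits at -2.30 with the shortest bar among the genes left of -1, and BNIP3 (1.63) and BNIP3L (1.09) sit on the other side of 0.

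Levels of different genes can be compared only per transcript length, and the order of the members then changed with the site. In CPM per kilobase, using the principal transcript of each gene in GENCODE release 29, bone marrow libraries held 73.9 ± 32.1 of BID, 68.9 ± 14.1 of BAD, 64.9 ± 17.6 of PMAIP1 and 19.7 ± 4.37 of MCL1 (SD, n = 4). Lung libraries held 98.1 ± 32.0 of PMAIP1, 97.0 ± 31.1 of MCL1, 87.4 ± 15.8 of BID and 48.9 ± 14.0 of BAD. The primary library held 100.9 of PMAIP1, 60.8 of MCL1, 53.0 of BID and 39.0 of BAD. MCL1 thus ranked 4 of the 10 members in bone marrow, below 3 BH3-only genes whose own values did not differ beyond their spread. In lung MCL1 ranked 2, level with PMAIP1 and BID within their spread. The other 6 members had lower means at every site, from 18.2 CPM per kilobase for BAX to 0.0588 for BCL2L1, both in the primary library. In bone marrow replicate 4 alone BAX, at 18.3 CPM per kilobase, exceeded MCL1, at 14.2. That rests on a BAX transcript of 793 bases, and with its longest coding transcript, of 1358 bases, the order reverses.

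**Figure D3:**
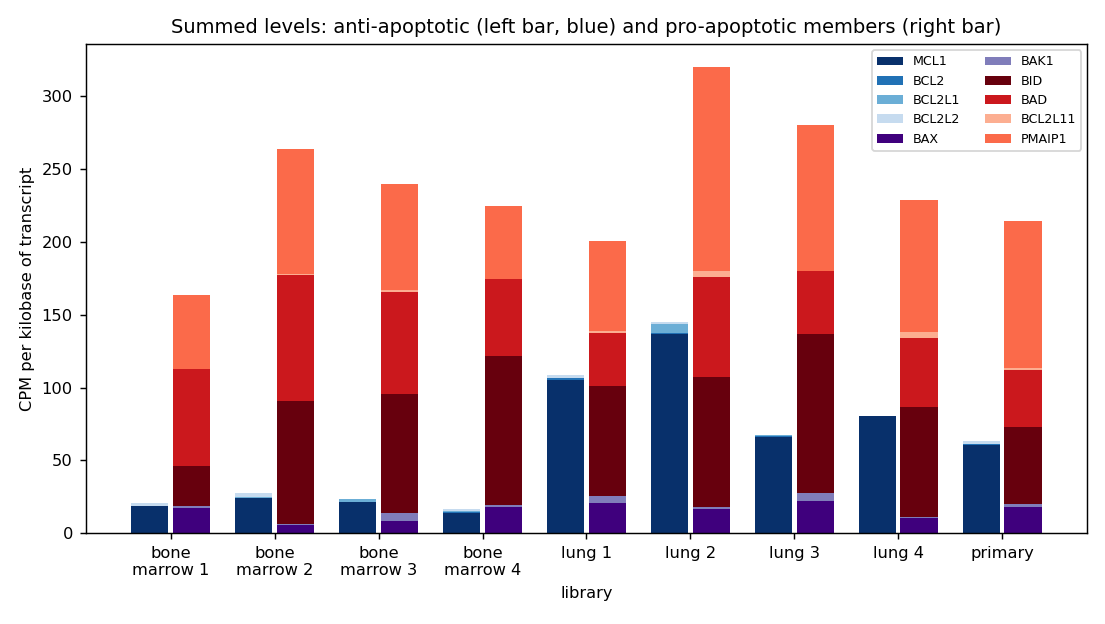
CPM per kilobase of transcript (y axis) in each of the 9 libraries (x axis), stacked over the 4 anti-apoptotic members (left bar, blues) and the 6 pro-apoptotic members (right bar, purple and reds). MCL1 fills most of every left bar, and the left bar is at most 0.127 of the right bar in bone marrow and at least 0.240 of it in lung.

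MCL1 made up nearly all of the anti-apoptotic RNA. Its share of the summed CPM per kilobase of the 4 anti-apoptotic members was 88.8% ± 2.57 in bone marrow and 97.1% ± 2.14 in lung (SD, n = 4 each), and 96.3% in the primary library. Its share of all 10 members was 8.13% ± 1.72, 27.1% ± 6.35 and 21.9% in the same order. On the pro-apoptotic side PMAIP1, BID and BAD took 29.1%, 32.1% and 31.5% of the sum in bone marrow, 37.5%, 34.4% and 18.9% in lung, with 47.0%, 24.7% and 18.2% in the primary library.

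The balance of anti- against pro-apoptotic members depended on how MCL1 was weighted. The mean log2(CPM + 1) of the 4 anti-apoptotic members minus that of the 6 pro-apoptotic members was -1.42, -1.51, -2.33 and -1.74 in bone marrow, -0.98, -0.84, -1.75 and -1.95 in lung and -1.34 in the primary library. Lung replicates 1 and 2 lay above all bone marrow libraries and lung replicates 3 and 4 did not, so the groups overlapped, with a difference of -0.37 for bone marrow against lung. Without MCL1 the means were -2.92 ± 0.47 in bone marrow and -3.06 ± 0.68 in lung (SD, n = 4 each), and the difference was 0.13.

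Summed by amount, the anti-apoptotic members stood at 0.127, 0.105, 0.0981 and 0.0739 of the pro-apoptotic sum in the 4 bone marrow libraries. In lung the ratio was 0.541, 0.453, 0.240 and 0.353, and in the primary library 0.294. The ranges of the sites did not overlap on this scale, which MCL1 dominates, and the difference of its log2 was -1.94. The pro-apoptotic sum itself was 223 ± 42.6 CPM per kilobase in bone marrow and 257 ± 53.1 in lung (SD, n = 4 each), ranges that overlapped. Without MCL1 the log2 difference of the ratio was 0.45.

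Set against PMAIP1, MCL1 stood lower in every bone marrow library than in every lung library. The log2(CPM + 1) of MCL1 minus that of PMAIP1 was -0.44, -0.79, -0.74 and -0.79 in bone marrow, 1.76, 0.98, 0.40 and 0.84 in lung and 0.28 in the primary library. The sign of this difference has no meaning of its own, since the transcripts differ in length. Per kilobase MCL1 exceeded PMAIP1 in lung replicate 1 alone, at 105 against 62.3 CPM per kilobase. Against BID the difference was 0.08, -1.12, -1.25 and -2.17 in bone marrow, 1.13, 1.27, -0.07 and 0.73 in lung and 0.85 in the primary library, so bone marrow replicate 1 and lung replicate 3 overlapped. These differences are of CPM, so they show how the pair shifts between libraries and not which transcript is the more abundant.

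**Figure D4:**
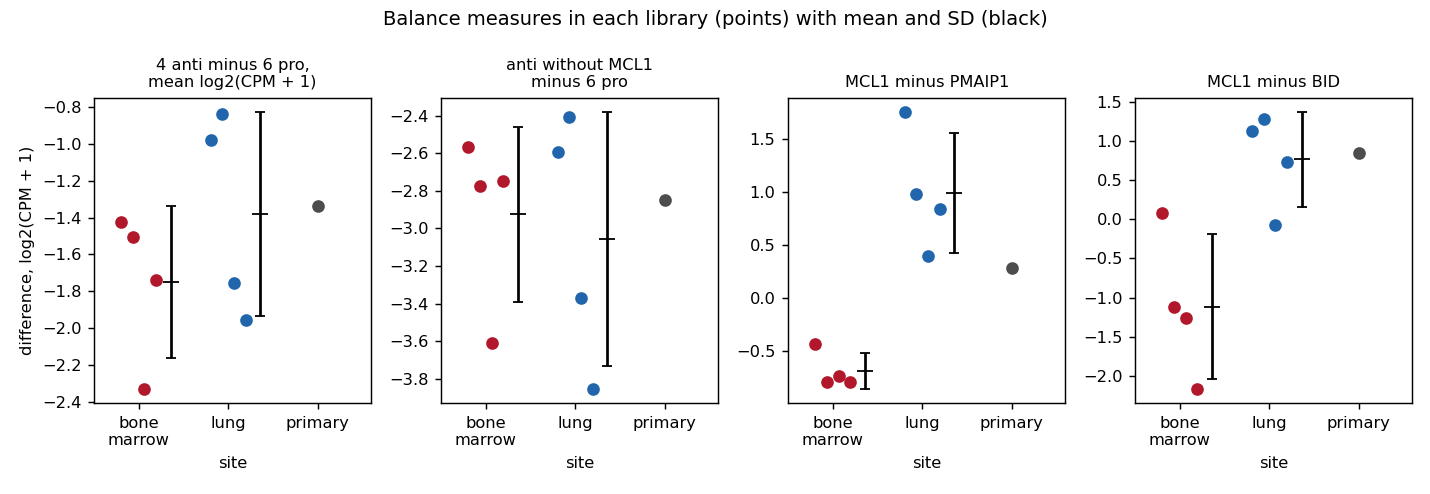
Differences of log2(CPM + 1) (y axes, each with its own scale) by site (x axis): the mean of 4 anti-apoptotic minus that of 6 pro-apoptotic members, the same without MCL1, MCL1 minus PMAIP1 and MCL1 minus BID. Points are libraries and black bars the mean and SD of 4 libraries; the sites overlap in every panel but MCL1 minus PMAIP1, where bone marrow reaches -0.44 at most and lung 0.40 at least.

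Against the primary tumour, none of the 9 members other than MCL1 passed the test, and MCL1 was not tested. These 3 comparisons share the 1 primary library, and their tests assume that it varies as the metastasis libraries do. In the edgeR quasi-likelihood test with Benjamini-Hochberg adjustment over all genes, 0 of the 9 members passed for metastases against primary, with a lowest adjusted p of 0.9999, and the test called 0% of all genes. At an unadjusted p below 0.05, 0 of 9 members passed where 4.79% of all genes did. DESeq2 called 0 of 9 against 0.716% of the genes to which it gave an adjusted p, and limma voom 0 of 9 against 0.282% of all genes.

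The 2 sites taken singly gave the same count of 0 of 9 with each tool. For bone marrow against primary, edgeR called 0% of all genes, an unadjusted p below 0.05 was reached by 3.81%, and DESeq2 called 0.502% and limma voom 0%. For lung against primary the shares were 0%, 6.45%, 1.11% and 0.0235%. No member had the primary library beyond all 8 metastasis libraries. Over all genes 7.56% had it below all of them and 10.1% above, so 0 of 10 members is near these shares. BCL2L1 was within by little, at 0.153 CPM in the primary library and 0.145 CPM in lung replicate 4, from 2 counts each. The lowest unadjusted p of a member was 0.0893, for BCL2 in bone marrow against primary, where the adjusted p in edgeR was 1 and the log2 fold change -2.21 (SE 1.16).

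For metastases against primary the log2 fold change was -1.22 (SE 1.11) for BCL2, -0.37 (SE 1.50) for BCL2L2, -0.30 (SE 0.78) for BAX, 0.53 (SE 1.70) for BAK1 and 0.60 (SE 0.58) for BID. It was 0.57 (SE 0.47) for BAD, -0.53 (SE 1.53) for BCL2L11 and -0.34 (SE 0.44) for PMAIP1, where the median of all genes was 0.17. No fold is given for BCL2L1, since the primary library held 2 counts of it. For MCL1, given with no test, the log2 fold change against the primary library was -1.63 (SE 0.40) in bone marrow and 0.68 (SE 0.46) in lung.

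The pathway around the members was read from lists of 83 further apoptosis gene names, of which 81 were in the count table and 74 had enough counts. The names not found, MARCH5 and MARCHF5, stand for the same gene of MCL1 turnover, which was missed by symbol and not for low counts. For bone marrow against lung, 44 were higher and 30 lower in bone marrow (median log2 fold change 0.08). The edgeR test called 0 of 74 (0.00587% of all genes were called), and 4 higher and 5 lower genes had an unadjusted p below 0.05 (10.2% of all genes). DESeq2 called 5 of the 67 genes to which it gave an adjusted p (3.38% of all such genes), and limma voom called 0 of 74 (0.0352% of all genes). The 9 genes at an unadjusted p below 0.05 are near the number that the share over all genes would give among 74. For metastases against primary, edgeR, DESeq2 and limma voom each called 0 of the 74, where 0%, 0.716% and 0.282% of all genes were called, and 2 higher and 1 lower gene had an unadjusted p below 0.05 (4.79% of all genes).

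The family members outside the 10 were mostly scarce. BNIP3 and BNIP3L, relatives known as receptors for the removal of mitochondria and induced by low oxygen, were the exceptions. BNIP3 was at 197 to 387 CPM in bone marrow, 42.4 to 149 CPM in lung and 429 in the primary tumour. Its log2 fold change was 1.63 (SE 0.39) and its adjusted p 0.329 in edgeR and 0.0108 in DESeq2. BNIP3L was at 323 to 387 CPM, 95.1 to 216 CPM and 313 CPM in the same order. Its log2 fold change was 1.09 (SE 0.26) and its adjusted p 0.329 in edgeR and 0.0140 in DESeq2. For both genes every bone marrow library lay above every lung library and the calls were made by DESeq2 alone. BCL2L12 averaged 19.6 ± 16.5 CPM in bone marrow against 28.2 ± 8.22 CPM in lung, BCL2L13 7.10 ± 4.16 and 7.0 ± 5.22 CPM, and the BH3-only gene HRK 5.63 ± 5.19 and 6.07 ± 1.74 CPM (SD, n = 4 each). BMF, BIK, BCL2A1, BCL2L14 and BBC3 (PUMA) averaged under 5 CPM at both sites, BOK reached 22.2 CPM in bone marrow replicate 3 alone, and BCL2L10 and BCL2L15 were at most 0.0740 and 0.248 CPM in any library.

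Downstream of the mitochondria, the apoptosome and caspase list held 12 genes higher and 3 lower in bone marrow of 15 tested (median log2 fold change 0.30), with none called by edgeR, DESeq2 or limma voom. An unadjusted p below 0.05 was reached by 1 gene of 15, against 10.2% of all genes. That gene was DFFB, a nuclease that cuts DNA in dying cells. It was listed at 0 in all lung libraries and in the primary library. In bone marrow its median was 0.298 CPM, and its highest value, 12.1 CPM, came from replicate 2. CASP10, an initiator caspase, averaged 26.1 ± 16.5 CPM in bone marrow against 10.7 ± 6.86 CPM in lung (SD, n = 4 each). CASP9, the caspase of the apoptosome, averaged 10.4 ± 7.22 and 14.4 ± 11.4 CPM. Of 7 inhibitors of apoptosis 4 were higher and 3 lower with none called by edgeR, DESeq2 or limma voom and 0 at an unadjusted p below 0.05. Among them BIRC5 (survivin) was at 1116 ± 191 CPM in bone marrow against 974 ± 79.6 CPM in lung, and XIAP, which blocks caspases directly, at 13.1 ± 6.02 and 24.8 ± 8.93 CPM (SD, n = 4 each).

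Upstream, the death receptor list held 4 genes higher and 8 lower in bone marrow of 12 tested (median log2 fold change -0.31). In this list edgeR and limma voom called none of them, 4 had an unadjusted p below 0.05, all lower in bone marrow, and DESeq2 called 2, also lower. Over all genes 3.88% were lower at that unadjusted p, and 1.22% of those with a DESeq2 adjusted p were called lower. A gene could enter the test on 1 library alone, here and over all genes. TNFRSF10B, among the 12, was at 0 CPM in all bone marrow libraries. Its lung median was 0, with 13.8 CPM in lung replicate 4, so the 12 are not equally well measured. TNFRSF21 (death receptor 6) was at 5.73 to 22.6 CPM in bone marrow, 45.4 to 136 CPM in lung and 32.8 in the primary tumour. Its log2 fold change was -2.73 (SE 0.53) and its adjusted p 0.299 in edgeR and 6.99e-05 in DESeq2. Its sites did not overlap. RIPK1, a kinase that signals from these receptors, was at 0.208 to 0.888 CPM in bone marrow against 0.145 to 13.3 CPM in lung, with adjusted p-values of 0.414 in edgeR and 0.0206 in DESeq2, and its sites overlapped. TNFRSF10D, a decoy receptor, averaged 54.8 ± 15.5 CPM in bone marrow against 36.9 ± 14.9 CPM in lung.

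Genes that act on MCL1 itself were tested singly and counted within 2 lists. Of 9 genes of MCL1 protein turnover, 7 were higher and 2 lower in bone marrow (median log2 fold change 0.20), none called by edgeR, DESeq2 or limma voom, and 0 at an unadjusted p below 0.05. USP9X, which strips ubiquitin from MCL1, averaged 65.8 ± 41.3 CPM in bone marrow against 40.6 ± 13.8 CPM in lung, and FBXW7, part of a ligase that marks MCL1, 14.6 ± 11.9 and 21.5 ± 11.3 CPM (SD, n = 4 each). CDC20, a mitotic ligase subunit, averaged 144 ± 42.3 and 99.9 ± 34.9 CPM, and DUSP6, a phosphatase of ERK, 31.5 ± 19.7 and 83.4 ± 48.0 CPM. Of 11 genes of MCL1 transcription and translation, 5 were higher and 6 lower, with a median of -0.04. In edgeR and limma voom 0 were called, and 1 gene was called by DESeq2 and had an unadjusted p below 0.05. Over all genes the shares were 3.38% for DESeq2 and 10.2% at that unadjusted p, so 1 of 11 is near the latter. The 1 gene was CCNT1, the cyclin that pairs with CDK9 to release paused RNA polymerase II. It was at 11.7 to 33.6 CPM in bone marrow, 43.7 to 96.7 CPM in lung and 63.9 in the primary tumour, without overlap between the sites, and its log2 fold change was -1.64 (SE 0.45) with adjusted p-values of 0.369 in edgeR and 0.0148 in DESeq2. STAT3 averaged 61.0 ± 14.8 CPM in bone marrow against 36.6 ± 20.4 CPM in lung.

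The outer membrane list holds proteins with which BAX and BAK1 dock or act. Of 9 tested, 6 were higher and 3 lower in bone marrow (median log2 fold change 0.20), with none called by edgeR, DESeq2 or limma voom. DNM1L, the GTPase of mitochondrial fission, was the 1 gene of 9 with an unadjusted p below 0.05, which 10.2% of all genes reached. It averaged 165 ± 70.1 CPM in bone marrow against 80.6 ± 32.3 CPM in lung. BCAP31 averaged 167 ± 27.1 and 186 ± 59.6 CPM (SD, n = 4 each).

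The genes whose pattern was most like that of MCL1 were found by Pearson's r of log2(CPM + 1) over the 9 libraries, among 5536 genes whose average log2 CPM reached 4. The 8 highest were SLC30A1 (r 0.955), KLF10 (0.954), HSPA1B (0.951), FBXO30 (0.937), TRIB1 (0.935), WSB2 (0.929), KLF6 (0.928) and DDX5 (0.928). The points share sites and libraries, so any gene that separates the sites ranks high, and all 8 had every lung library above every bone marrow library. SLC30A1, a zinc exporter, averaged 11.1 ± 5.42 CPM in bone marrow, 119 ± 44.4 CPM in lung and 37.6 in the primary tumour. The helicase DDX5 averaged 90.2 ± 20.7, 184 ± 27.1 and 155 CPM in the same order. The 4 lowest were IDH1 (-0.90), AAMP (-0.90), NAA50 (-0.90) and ALG10B (-0.96), of which IDH1, a cytosolic dehydrogenase, averaged 704 ± 173 CPM in bone marrow against 335 ± 39.8 CPM in lung (SD, n = 4 each). Among the other members r was 0.70 for PMAIP1, 0.65 for BCL2L11, 0.62 for BCL2 and -0.47 for BAD, and between -0.13 and 0.34 for the other 5.

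**Figure D5:**
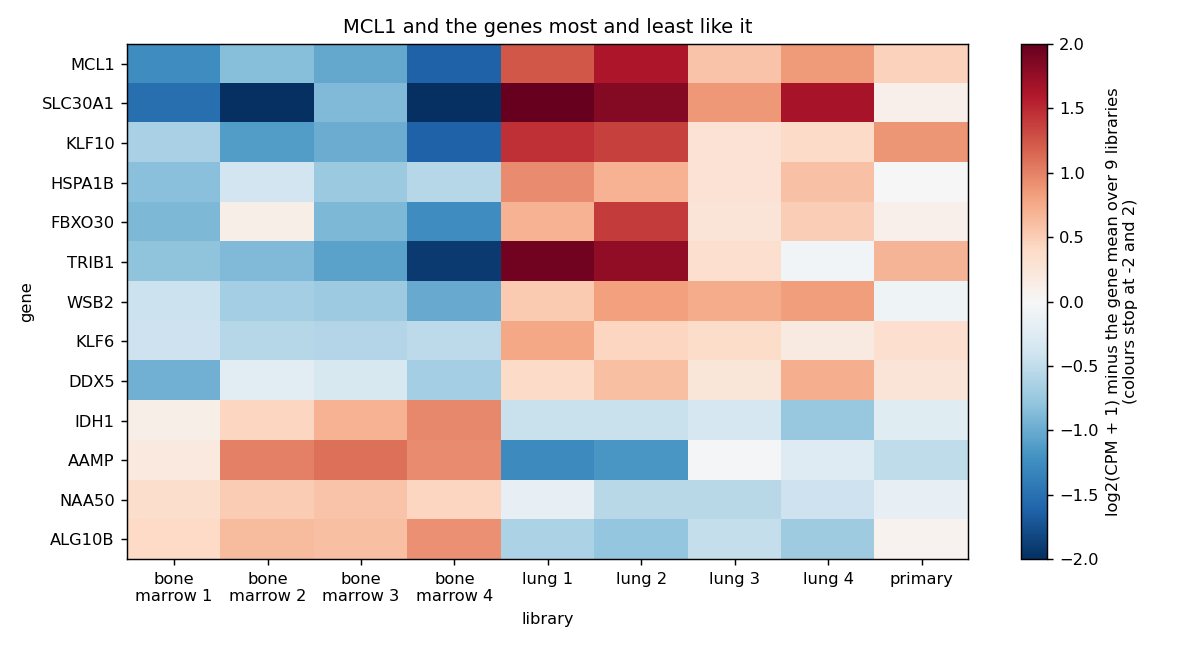
MCL1, the 8 genes with the highest and the 4 with the lowest Pearson's r to it (y axis) in each of the 9 libraries (x axis). Colour is log2(CPM + 1) minus the gene's mean over 9 libraries, red above and blue below, with colours ending at -2 and 2. The first 9 lines are mostly blue in bone marrow and red in lung, and the last 4 the reverse.

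Of these 8 genes, 3 (KLF10, HSPA1B and KLF6) stood on a list of 34 early response and dissociation stress genes, which rise within minutes of handling or growth stimulation, as MCL1 can. The list was chosen with earlier results of these data known, and its share among all genes ranked was not counted. On that list 25 genes were lower and 9 higher in bone marrow (median log2 fold change -0.97). Here edgeR and limma voom called 0 of 34, 8 lower genes and 1 higher gene had an unadjusted p below 0.05, and DESeq2 called 8, all lower, against the same shares of 3.88% and 1.22% lower over all genes. RHOB, a small GTPase, was at 26.8 to 63.4 CPM in bone marrow, 119 to 461 CPM in lung and 173 in the primary tumour, with an adjusted p of 0.179 in edgeR and 5.6e-07 in DESeq2. KLF6, a transcription factor, was at 105 to 118 CPM, 178 to 269 CPM and 199 CPM in the same order. FOS, the best known gene of the class, had the higher mean in bone marrow, with 437 ± 130 CPM in bone marrow, 182 ± 94.7 CPM in lung (SD, n = 4 each) and 110 CPM in the primary library. The mean log2(CPM + 1) of the list was 4.13 to 5.0 in bone marrow, 4.75 to 5.46 in lung and 5.19 in the primary library, so the sites overlapped, and its summed level was 1726 to 3730, 2294 to 4149 and 3139 CPM. The part of this response, of handling or of library depth in the MCL1 difference was not tested.

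The share of reads assigned to mouse was 7.35% to 7.75% in bone marrow and 7.45% in the primary library. Lung libraries lay on both sides of that range, with 7.15% in replicate 4 and 8.09% in replicate 3, so the sites overlapped. Human genes that mark cells a sort could carry along also overlapped between the sites when summed by cell type. The hosts were mice, so these human genes do not measure host cells directly. The summed level of 6 red cell markers was 16.6 to 99.9 CPM in bone marrow, 3.63 to 161 CPM in lung and 7.83 in the primary tumour, with ALAS2 at 0 in all. That of 7 lung epithelium markers was 12.3 to 79.0, 3.92 to 119 and 30.6 CPM, with SCGB1A1 at 0. The 5 endothelium markers summed to 23.6 to 27.9, 25.3 to 30.1 and 23.5 CPM, and the 4 marrow stroma markers to 11 to 24.8, 11.7 to 24.3 and 20.9 CPM. The list sums hide 2 markers whose sites did not overlap. CD68, a macrophage marker, was at most 0.444 CPM in bone marrow and from 0.994 to 20.9 CPM in lung, with 2.30 CPM in the primary tumour, and so separated the sites as MCL1 did. LYZ, a lysozyme of myeloid cells, separated them the other way, with 0.587 to 1.53 CPM in bone marrow and at most 0.563 CPM in lung. The part of carried-along cells in the MCL1 difference was not tested.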

How the data were processed

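RNA from sorted TC71 cells was isolated with a column kit and turned into cDNA by template switching with a kit for low input, as the labels' protocols say. Estimated counts for each gene symbol were deposited without scaling for depth. The submitters' processing notes name Trim Galore, Salmon and hg38, without versions, and the annotation and strand setting are not given in the sources used here. Also deposited were the percent of each library's reads given to each species and the fraction in each alignment category.

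Of 34934 rows, 92 spike-in and 12 vector rows were left out. Dates stand in place of names in 28 rows. Counts were rounded to whole numbers, filtered with filterByExpr (17042 genes), scaled by TMM and fitted in edgeR 4.0.16 (R 4.3.3) as 3 groups over 9 libraries, with quasi-likelihood tests and Benjamini-Hochberg adjustment at 0.05. Since the primary group has 1 library, a gene could pass the filter on 1 library alone. Standard errors are the absolute log2 fold change over the square root of F. Alternatives were DESeq2 1.42.0, limma 3.58.1 voom with quality weights, other size factors and filters, a fit blocked on replicate number, a fit without the primary and fits with libraries left out. The biological coefficient of variation was 0.925. All 36 pairs of libraries differed beyond sampling noise, with a lowest chi-square of 79.9 per degree of freedom. Correlations of deviations between same-numbered bone marrow and lung libraries ran from -0.06 to 0.04, so numbers were not taken as pairs. The members and lists were chosen with earlier results of these data known. Named genes are the 10 members, the rest of the family, the smallest p in each direction of each other list and the 8 most and 4 least like MCL1. Other genes shown are examples chosen after their values were seen.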

Additional observations from a re-analysis of the deposited data

Results flagged for a closer look

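Dixon's test, which compares a library's gap to its nearest neighbour with the range of the group, was passed at the 95% level in 3 of 26 groups of 4 libraries looked at. At that level chance marks about 1 in 20 groups. BCL2L1 stood at 17.3 CPM in lung replicate 2, far above the other lung libraries. BAK1 stood at 12.6 CPM in bone marrow replicate 3, far above the other bone marrow libraries. MCL1 minus PMAIP1 on the log2(CPM + 1) scale was -0.44 in bone marrow replicate 1, above the other bone marrow libraries, which lay between -0.79 and -0.74.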

How the results depend on the processing

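The log2 fold change of MCL1 for bone marrow against lung was negative under all 17 alternatives, and ran from -2.44 to -2.09 as single libraries were left out. Of the other 9 members 7 were lower in bone marrow, 3 of 5 when a gene needed 5 CPM in 4 libraries, which leaves fewer genes, 5 of 9 with limma voom, 5 of 9 without both bone marrow replicate 1 and lung replicate 3, and 6 or 7 of 9 as single libraries were left out. BCL2L1, BAK1 and BID changed sign in 3, 3 and 2 alternatives. The balance of -0.37 ran from -0.56 to -0.17 as single libraries were left out. It was 0.13 without MCL1 and -1.94 as a log2 ratio of summed CPM per kilobase. In alternatives chosen after seeing the data, that ratio was -1.95 with the longest coding transcript and 0.45 without MCL1. DESeq2 called 5 apoptosis genes outside the members where edgeR called 0, and the cause was not tested. With the replicate number as a block, over 12600 genes, MCL1 was at -2.29 (SE 0.26), 6 of the other 9 members were lower in bone marrow, and 0 apoptosis genes were called. Bone marrow replicate 2 and lung replicate 2 correlated best with each other (r 0.04), and no other library correlated best with its own number. Only 4 libraries per site and 1 primary library, a low-input kit and a few counts for BCL2L1, BCL2 and BCL2L11 limit what can be seen of these genes.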
